A study of Homo sapiens with 12 samples.

Results

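Strong distal regions are stretches of open chromatin that lie far from the ends of protein-coding genes and stood out in every ATAC-seq library of the series. They can lie between such genes or deep inside them. They were chosen on measured values: peaks with a height of 3 or more in any of the 12 libraries were merged on chromosomes 1 to 22 where they shared at least 1 bp, and a merged region was kept when each of the 12 libraries had a peak of height 10 or more in it and it lay more than 10 kb from either end of every protein-coding gene. Of 283481 merged regions, 2160 met the rule, and all 2160 were among the 20785 regions with a peak in all 12 libraries that were tested. The height is the authors' pileup at the tallest position of a peak, in whole numbers and not scaled between libraries. By the choice of members every height given here is at least 10, so presence and strength in all libraries describe the rule and are no finding.

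The libraries came from KYSE150 and KYSE510, established cell lines of human oesophageal squamous cell carcinoma. The 12 libraries fall into 4 groups of 3: KYSE150 control, KYSE150 with HCP5 silenced, KYSE510 control and KYSE510 with HCP5 silenced, HCP5 being a long non-coding RNA. How HCP5 was silenced, what the control cells received and whether batches existed are not given in the sources used here. Nothing in the labels says that the 3 libraries of a group came from separate cultures, so p-values measure only the spread between these libraries. The study's title names apoptosis, MYC transcription and UTP3, and silenced against control asks whether open chromatin changed with HCP5.

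ATAC-seq reads out where a transposase can insert into DNA that is not covered by nucleosomes. Open regions far from promoters are often enhancers, which are bound by transcription factors and act on genes at a distance, or insulators, or starts of unannotated and non-coding transcripts. In squamous epithelium, enhancers are known for binding sites of AP-1, the dimer of FOS and JUN proteins, and of the p53-family member p63. The regions described here are known only as open chromatin, since no histone mark, factor binding or transcript was measured.

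Peaks of height 10 or more within 1 kb of a gene end served as a check of the cell type. KRT8, a simple epithelial keratin, and LAMB3, a laminin chain of the basement membrane, had such a peak in all 12 libraries, and GRHL2, SFN and KRT18 in 11. Among the other epithelial markers checked, KRT5 had one in 4 KYSE150 and 5 KYSE510 libraries and CDH1 in 1 and 3. KRT17 had one in none of KYSE150 and 6 of KYSE510, and TP63 and KRT14 in no library. Starts further inside a gene lay outside this check. Of 17 genes of other cell types, 12 had none in any library, among them PTPRC, PECAM1, COL3A1 and ALB. SPI1, CD14 and APOA1 had one in 4 or 5 of the KYSE510 libraries and in none of KYSE150, and COL1A1 and PDGFRB in 6 KYSE510 libraries and in 2 and 3 of KYSE150. The highest peak at these 5 genes had a height of 27. The part of these markers in the results was not tested.

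Among the members, 1106 (51.2%) lay inside a protein-coding gene and 1054 (48.8%) between genes. Inside or outside such a gene, 490 members (22.7%) lay in the body of a long non-coding RNA gene, and 691 (32.0%) lay in neither kind. The gene table used gives gene bounds only, so exons and introns were not told apart. Members between genes had a median distance of 52382 bp to the nearest protein-coding gene, with a range from 10082 to 1430276 bp. The members had a median length of 752 bp (292 to 2175), against 887 bp for the 2345 regions that were equally strong but lay within 1 kb of a gene end, called strong promoter regions below. Of 19126 protein-coding genes on these chromosomes, 1634 (8.54%) were host or nearest gene of at least 1 member.

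At the edges of the rule, 356 members had a lowest height of exactly 10, and 469 distal regions were left out with a lowest height of 9. Their median heights over the libraries were 17 and 15. The nearest member to a gene end lay at 10029 bp and the nearest strong region left out at 9992 bp.

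Not all members were free of transcript starts. In the RefSeq start table for GRCh38.p14, which covers no start on chromosome 8 and so none of the 126 members there, 110 members held a start of a protein-coding transcript inside its gene and 77 others held a start of a long non-coding RNA. A further 7 members held a tRNA gene and 3 a nuclear pseudogene of mitochondrial DNA. Among members outside chromosome 8, 95 of 2034 (4.67%) held a long non-coding start, with or without a protein-coding one, against 3.07% of the 8322 other distal regions that were tested, for which the 7862 outside chromosome 8 are the base.

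These start windows, 250 bases before to 50 after the start, were the sequences of members at hand, and they were searched on both strands for fixed motifs. The motifs were those of AP-1, CRE, CTCF, TEAD, p53/p63, ETS, GRHL, KLF/SP, RUNX, FOX, NFY, NFI and the tRNA B box. The AP-1 motif TGANTCA was in 39 of 102 windows (38.2%) of long non-coding RNAs that start in a member. It was in 79 of 265 windows (29.8%) of long non-coding RNAs starting in another tested distal region, and in 892 of 7786 windows (11.5%) of those starting more than 10 kb from gene ends in no tested region. Over all 33558 windows the share was 7.68%, over all long non-coding windows 10.3%, and over windows at strong promoter regions 4.04%. Counted by region, 37 of 95 members (38.9%) with a long non-coding start had the motif, and in 38 of the 39 windows a copy lay within the member itself.

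The median GC content of the long non-coding windows was 56.2% in members, 56.3% in other tested distal regions and 45.7% in no tested region. Among windows with a GC content under 60%, the AP-1 motif was in 31 of 59 (52.5%), 72 of 164 (43.9%) and 853 of 6798. Of windows of protein-coding transcripts that start in a member, 18 of 141 (12.8%) held the motif, near the 11.2% in other tested distal regions and 9.97% of distal starts in no tested region, against 6.09% of all protein-coding windows. The shares are descriptions of windows that can overlap and share a region, and their differences were not tested.

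To show what such a start looks like, 5 long non-coding and 2 protein-coding starts with the motif are printed as the 250 bases before the start, 5′ to 3′ on the strand of the transcript, credited to RefSeq (GRCh38.p14). Capitals mark the AP-1 motif. All 7 were chosen with the values known: the first 4 for the high fold enrichment of their regions, LINC-PINT for its difference between the lines, and LAMA3 and EGFR as listed genes.
LOC105378494: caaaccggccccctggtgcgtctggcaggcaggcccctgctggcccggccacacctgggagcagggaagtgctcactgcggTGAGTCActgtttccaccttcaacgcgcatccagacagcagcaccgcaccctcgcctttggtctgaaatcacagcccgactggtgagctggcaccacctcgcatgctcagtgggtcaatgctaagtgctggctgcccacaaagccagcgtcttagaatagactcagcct
LOC124906088: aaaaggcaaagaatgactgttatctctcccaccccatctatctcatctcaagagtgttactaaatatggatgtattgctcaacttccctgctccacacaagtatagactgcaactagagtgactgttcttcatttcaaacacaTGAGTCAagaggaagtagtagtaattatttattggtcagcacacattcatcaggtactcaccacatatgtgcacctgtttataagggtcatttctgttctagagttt
LINC02608: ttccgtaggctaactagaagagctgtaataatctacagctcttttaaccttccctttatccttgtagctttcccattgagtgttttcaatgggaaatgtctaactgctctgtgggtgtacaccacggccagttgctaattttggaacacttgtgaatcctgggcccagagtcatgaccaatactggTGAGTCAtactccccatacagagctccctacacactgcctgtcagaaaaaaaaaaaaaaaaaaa
DLGAP1-AS6: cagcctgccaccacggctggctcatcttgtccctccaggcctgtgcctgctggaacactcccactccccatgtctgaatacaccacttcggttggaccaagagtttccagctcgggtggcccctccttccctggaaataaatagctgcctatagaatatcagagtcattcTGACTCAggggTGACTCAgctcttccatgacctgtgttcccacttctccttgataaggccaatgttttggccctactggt
LINC-PINT: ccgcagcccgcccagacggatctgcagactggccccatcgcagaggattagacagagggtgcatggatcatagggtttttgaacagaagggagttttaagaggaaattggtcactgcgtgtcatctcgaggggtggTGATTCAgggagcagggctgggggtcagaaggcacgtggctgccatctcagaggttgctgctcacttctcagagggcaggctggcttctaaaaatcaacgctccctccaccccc
LAMA3: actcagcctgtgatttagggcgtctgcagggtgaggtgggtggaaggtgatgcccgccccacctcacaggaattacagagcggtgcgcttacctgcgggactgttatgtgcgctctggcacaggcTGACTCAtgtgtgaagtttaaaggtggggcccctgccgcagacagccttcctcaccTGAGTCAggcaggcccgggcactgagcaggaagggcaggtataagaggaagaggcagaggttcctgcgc
EGFR: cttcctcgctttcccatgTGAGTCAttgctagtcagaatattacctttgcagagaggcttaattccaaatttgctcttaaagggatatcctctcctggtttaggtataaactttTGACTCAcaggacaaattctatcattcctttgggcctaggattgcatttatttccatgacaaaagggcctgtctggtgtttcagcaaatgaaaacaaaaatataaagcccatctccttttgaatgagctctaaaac

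The stretches lie at chr10:114320756-114321005 (plus strand) for LOC105378494, chr2:168211200-168211449 (plus) for LOC124906088, chr1:212234737-212234986 (minus) for LINC02608 and chr18:3652864-3653113 (plus) for DLGAP1-AS6. They lie at chr7:130913311-130913560 (minus) for LINC-PINT, chr18:23872770-23873019 (plus) for a start inside LAMA3, which encodes a laminin chain of the hemidesmosome, and chr7:55109589-55109838 (plus) for a start inside EGFR, the receptor for epidermal growth factor. DLGAP1-AS6, LAMA3 and EGFR each have 2 copies of the motif, which begin 80 and 69, 125 and 69, and 232 and 136 bases before the start.

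Some starts in members were rich in GC and in the KLF/SP motif GGGCGGG. Windows that hold both this motif and the AP-1 motif were not counted. The KLF/SP motif was in 76 of 141 protein-coding windows (53.9%) at members, against 43.5% in other tested distal regions and 42.6% of all protein-coding windows. It was in 38 of 102 long non-coding windows (37.3%) at members, against 24.9% in other tested distal regions and 17.2% of all long non-coding windows. Over all windows the share was 33.1%, and over windows at strong promoter regions 61.6%. The ETS motif CCGGAAG was in 16.3% of the protein-coding and 15.7% of the long non-coding windows at members. In other tested distal regions it was in 9.23% and 11.3%, and over all windows of each kind in 12.8% and 5.88%. At strong promoter regions the share was 21.8%, and over all windows 10.2%. By contrast the TEAD motif ACATTCC was in 2 of the 102 long non-coding windows (1.96%), against 5.68% of distal long non-coding windows in no tested region. The p53/p63 motif was in 0 of the 102 long non-coding and 1 of the 141 protein-coding windows at members. It was rare over all windows too (0.0834%). The starts of PHF19, which encodes a Polycomb-associated protein, and of CHASERR, a long non-coding RNA next to CHD2, are printed in the same way, with capitals on the KLF/SP and ETS motifs.
PHF19: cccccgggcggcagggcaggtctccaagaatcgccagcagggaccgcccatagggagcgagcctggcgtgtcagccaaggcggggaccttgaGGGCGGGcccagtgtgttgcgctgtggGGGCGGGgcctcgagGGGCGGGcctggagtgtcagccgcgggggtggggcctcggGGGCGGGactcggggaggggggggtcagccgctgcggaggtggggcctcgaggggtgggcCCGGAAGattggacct
CHASERR: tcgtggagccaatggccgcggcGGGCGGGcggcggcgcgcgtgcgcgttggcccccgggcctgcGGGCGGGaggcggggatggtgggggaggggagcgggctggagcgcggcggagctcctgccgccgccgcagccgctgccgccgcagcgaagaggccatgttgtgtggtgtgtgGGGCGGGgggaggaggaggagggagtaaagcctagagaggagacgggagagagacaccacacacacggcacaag

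PHF19 has 4 KLF/SP motifs and 1 ETS motif in this stretch, at chr9:120868912-120869161 on the minus strand, with a GC content of 75.6%. CHASERR has 3 KLF/SP motifs, at chr15:92882593-92882842 on the plus strand, with a GC content of 74.8%. The printed AP-1 stretches ran from 38.8% (EGFR and LOC124906088) to 62.0% (LOC105378494). A match is a string of letters and not a bound site.

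**Figure D1:**
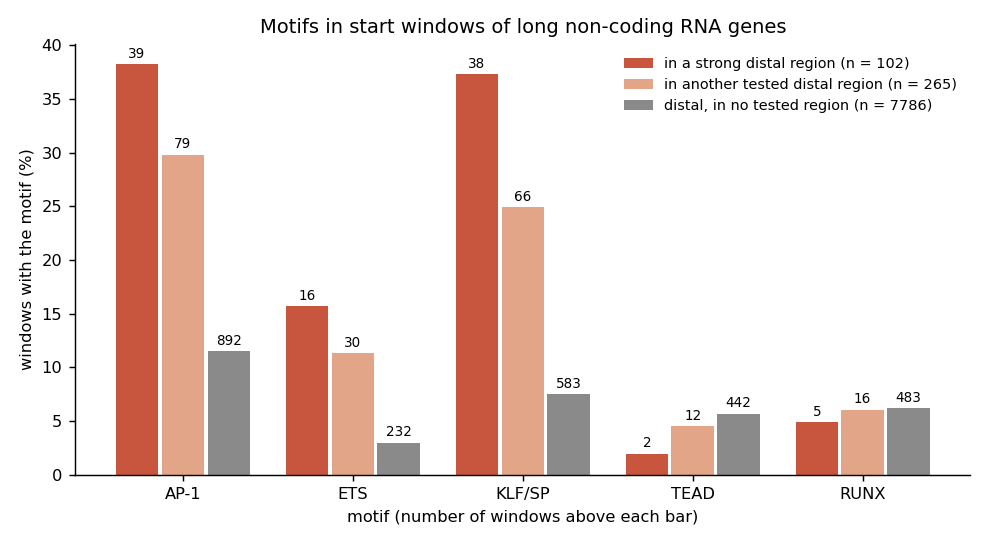
Share of start windows of long non-coding RNA genes (y axis, percent; number of windows above each bar) that hold each motif (x axis), for starts in a strong distal region, in another tested distal region, and more than 10 kb from gene ends in no tested region. AP-1 was in 38.2%, 29.8% and 11.5% of windows, while TEAD and RUNX were no more frequent in members than elsewhere.

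The peaks of members were taller in KYSE510 libraries. Member medians of height lay between 17 and 23.5 in KYSE150, lowest in silenced library 3, and between 24 and 28 in KYSE510, so the lines did not overlap. All tested regions moved the same way, with medians between 9 and 12 and between 13 and 16. A height is not comparable between libraries of unequal depth, which is unknown here. The tables also differ in length by line, with 547125 to 630780 peaks for KYSE150 and 115868 to 135948 for KYSE510, and with 52933 to 63375 and 104302 to 123207 peaks of height 3 or more. The background that each peak's height and fold enrichment imply had its most frequent value at 0.0830 to 0.108 in KYSE150, against 0.180 to 0.217 in KYSE510. The authors' fold enrichment, (height + 1) / (background + 1), was therefore ranked within each library over the 20785 tested regions. Members had a median percentile between 84.3 and 85.3 in KYSE150 and between 78.6 and 81.3 in KYSE510. For strong promoter regions it lay between 79.9 and 84.2, and between 79.0 and 82.8.

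The fixed height of 10 asked more of a region in KYSE150 than in KYSE510. In KYSE150 libraries, 36.9 to 56.4% of all tested regions lay under a height of 10, in KYSE510 libraries 22.9 to 31.9%. Membership therefore selects for a higher rank in KYSE150, and this touches every comparison of the lines below.

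**Figure D2:**
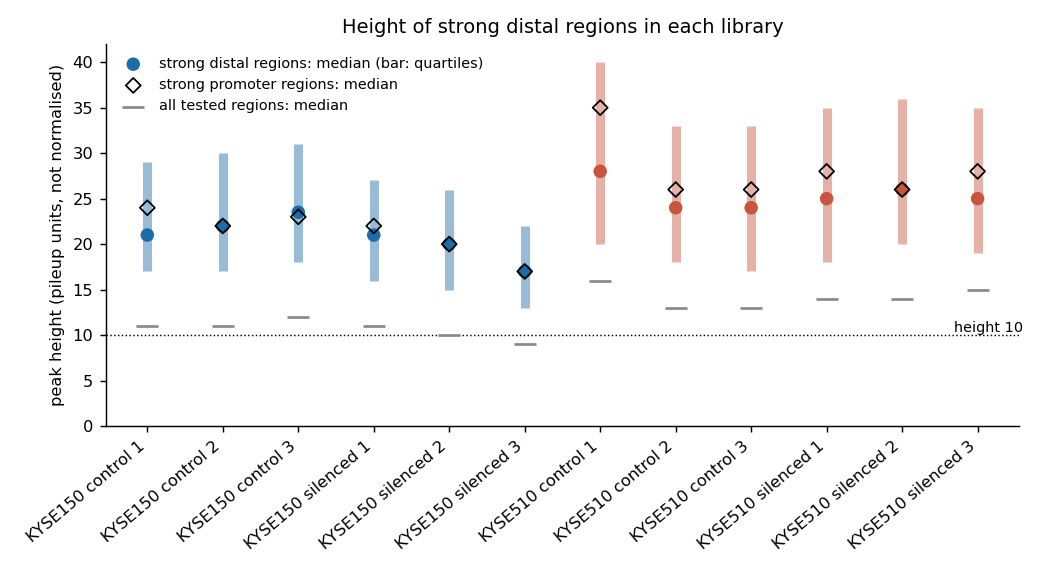
Peak height in pileup units, not normalised (y axis), in each of the 12 libraries (x axis). Filled points and bars give the median and quartiles of the 2160 strong distal regions, diamonds the median of strong promoter regions and dashes that of all tested regions; member medians run from 17 to 23.5 in KYSE150 and from 24 to 28 in KYSE510, all above the dotted height of 10 set by the rule.

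The tallest members include a region far from genes and nuclear copies of mitochondrial DNA. The region at chr17:22521268-22521590, 816656 bp from the nearest protein-coding gene KCNJ18, ranked first in all 12 libraries. Its heights were 687, 681 and 675 in KYSE150 controls, 679, 695 and 711 in silenced KYSE150, 459, 454 and 463 in KYSE510 controls, and 456, 464 and 460 in silenced KYSE510. Of the 3 mitochondrial pseudogenes, MTATP6P1 at chr1:633868-634196 had heights of 989 to 1004 in KYSE150 and 1752 to 1805 in KYSE510. MTND2P28 at chr1:629810-630107 had 1032 to 1093 and 831 to 878, both taller than the first-ranked region. MTND4P12, described with the line comparison, was lower than that region in both lines. By mean percentile MTATP6P1 was at 99.90, MTND2P28 at 95.21 and MTND4P12 at 59.09. Nuclear copies of mitochondrial DNA are near-identical to the mitochondrial genome, so reads cannot be assigned to them with certainty, and the origin of their signal was not tested. Regions were not filtered here for mappability or against a list of artefact-prone sites. The origin of the signal at the first-ranked region and the other tall members was likewise not tested. Fold enrichment did not exceed 47.9 in any library, whatever the height, so its ranks separate the tallest peaks only weakly.

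The other members among the 10 with the highest mean percentile were taller than most members, whose highest height had a 90th percentile of 62. Beside PHF19 they include an open site inside LDLRAD3 at chr11:36149485-36150283 (heights 68 to 156), one inside OSMR, the oncostatin M receptor, at chr5:38871808-38872682 (49 to 101), and one inside HSD17B12, a fatty acid elongation enzyme, at chr11:43830832-43831449 (46 to 84). Further sites lie 45640 bp from PJA2, a ubiquitin ligase, at chr5:109455614-109456199 (52 to 78), and 68118 bp from CHD2, a chromatin remodeller, at chr15:92831639-92832206 (42 to 102). The region at chr3:93470258-93470886, 402165 bp from PROS1, had heights of 81 to 162, and 1 region 138671 bp from MYC is described below with the regions around that gene.

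PHF19's region at chr9:120868285-120869215 had heights of 93, 73 and 81 in KYSE150 controls and 63, 74 and 54 in silenced KYSE150. In KYSE510 they were 110, 79 and 84 in controls and 82, 82 and 94 in silenced cells. The groups overlapped in both lines. The standard deviation of its rank score over the 12 libraries was 0.246, against a median of 0.441 over all members. Apart from the first-ranked region, the steadiest members lay 12789 bp from ALG1L2 (SD 0.142), 71248 bp from SND1 (SD 0.167), 22289 bp from LOC124905962 (SD 0.181) and 11116 bp from YAP1 (SD 0.184). The rank score is the normal score of the within-library rank of fold enrichment, in SD units.

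Members were mostly solitary. With neighbours joined over gaps of just over 12 kb at most, the 2160 members formed 2004 stretches, of which 1866 held a single member and 138 held 294 members. The median gap between neighbours on a chromosome was 529281 bp. The largest stretches had 4 members each, at chr3:193869724-193883874 near OPA1, a mitochondrial fusion gene, at chr5:151613014-151628740 near FAT2 and SPARC, and at chr11:34243611-34275562 inside ABTB2. By host or nearest gene, MYC had the most members (10), then ABTB2, ASAP2, OPA1 and TOMM20 with 7 each, and CAST, EGFR, IRF2BP2 and ZMIZ1 with 6 each. Chromosome 2 had the most members (230). On gene-dense chromosome 19, 15 of 759 tested regions (1.98%) were members, against 174 of 1220 (14.3%) on chromosome 7. The rule bars regions near gene ends and the base is all tested regions, so these shares also reflect gene density. The 3 longest members, near SH3GL3 and GPRIN2 and inside PTPN14, measured 2175, 1980 and 1970 bp.

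HCP5 silencing was compared with control in each line by limma on the rank scores over all 20785 regions, with Benjamini-Hochberg adjustment over all of them. In KYSE150 no member passed an adjusted p of 0.05, and over all tested regions percent called was 0. At an unadjusted p under 0.05, 63 members were higher and 45 lower after silencing, 5.00% of members against 6.45% of all tested regions. The smallest adjusted p of a member was 0.367. The median change of members on the log2(height + 1) scale, centred on each library's median, was -0.04, with 5th and 95th percentiles of -0.43 and 0.35 and a median SE of 0.24.

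In KYSE510 no member passed either, against 2 of all tested regions (0.00962%). At an unadjusted p under 0.05, 82 members were higher and 49 lower, 6.06% of members against 5.96% of all tested regions. The smallest adjusted p of a member was 0.293, and the median log2 change was -0.03, with 5th and 95th percentiles of -0.44 and 0.44. Whether silencing acted differently in the 2 lines was tested as an interaction, which passed for no member and for 0% of all tested regions. It had an unadjusted p under 0.05 for 89 members (4.12%), against 5.29% of all. All 3 silenced libraries lay above or below all 3 controls in rank score for 10.7% of members in KYSE150 (137 above, 95 below), against 10.3% of all tested regions. In KYSE510 this held for 10.9% of members (126 above, 110 below), against 12% of all. Each of these shares lay near or under the background of all tested regions.

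**Figure D3:**
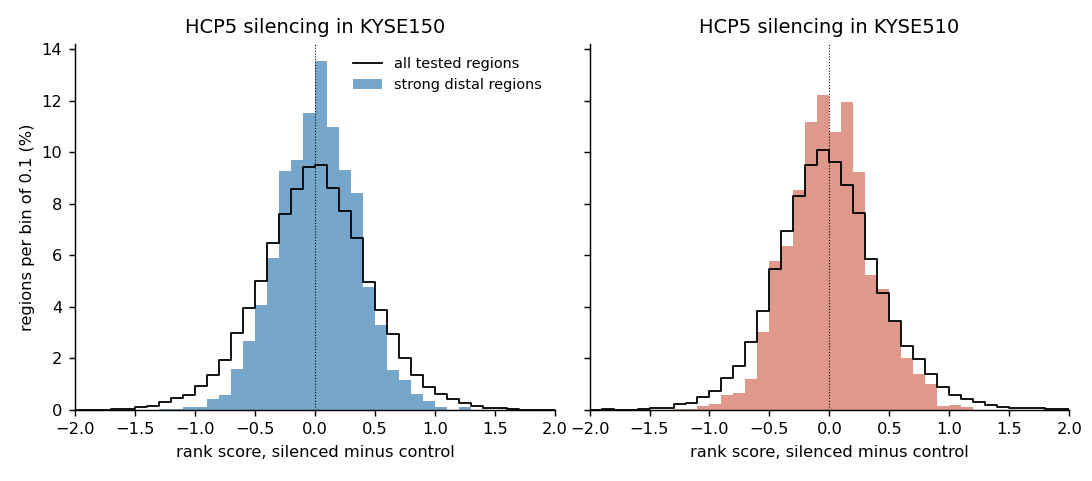
Distribution of the change in rank score from control to HCP5-silenced libraries (x axis, SD units; y axis, percent of regions per bin of 0.1) in KYSE150 (left) and KYSE510 (right). Bars show the 2160 strong distal regions and the line all 20785 tested regions; both centre near 0, with member medians of 0.03 and 0.00.

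The members with the smallest unadjusted p are given as values, since none passed. In KYSE150 a site inside SIK2, a salt-inducible kinase gene, at chr11:111651283-111651875 had heights of 15, 25 and 14 in controls and 27, 32 and 26 in silenced cells. Its rank score differed by 1.29 (SE 0.30, limma adjusted p = 0.367). In KYSE510 the same site had 19, 16 and 18 in controls and 15, 18 and 12 in silenced cells, and the difference between the lines had a limma adjusted p of 0.868. On the other side, a site inside GALNT7, a glycosyltransferase gene, at chr4:173252223-173252780 had 29, 32 and 31 in KYSE150 controls and 21, 12 and 14 in silenced cells (limma adjusted p = 0.533). The heights of the 2 groups did not overlap at either site.

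In KYSE510 a site 16764 bp from OR5K1, an olfactory receptor gene, at chr3:98445854-98446437 had heights of 19, 16 and 19 in controls and 33, 47 and 40 in silenced cells. Its rank score differed by 1.19 (SE 0.30, limma adjusted p = 0.293). In KYSE150 it had 13, 24 and 18 in controls and 23, 25 and 13 in silenced cells, which overlap. A site inside CAST, the calpain inhibitor gene, at chr5:96733852-96734575 had 15, 12 and 14 in KYSE510 controls and 28, 27 and 23 in silenced cells (limma adjusted p = 0.3003). A site inside COBL, an actin nucleator gene, at chr7:51123544-51124179 had 27, 28 and 32 in KYSE510 controls and 16, 12 and 21 in silenced cells (limma adjusted p = 0.293). The groups did not overlap at any of these 3 sites in KYSE510, and none passed on rank scores.

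The other sites named by the smallest p were in or near CD58 and ESRRB (positive difference in KYSE150), TNS3 and MICAL3 (negative in KYSE150), GSDMC (positive in KYSE510) and FAM3C and SPECC1 (negative in KYSE510), with limma adjusted p from 0.322 to 0.617. For the difference between lines they were in KCNMA1, PRR5L and DDX59 on one side and SIK2, SRGAP3 and COBL on the other, with limma adjusted p from 0.868 to 0.895. On the log2(height + 1) scale 3 of 2160 members (0.139%) passed in KYSE510, all higher after silencing, against 18 of all tested regions (0.0866%). With quantile-normalised values 1 member passed, against 0.0241% of all. They were the OR5K1 site (log2 change 1.06, limma adjusted p = 0.0450), a site inside MAP3K9, a kinase gene, at chr14:70782102-70782861 (1.04, limma adjusted p = 0.0328) and a site 32356 bp from SPARC at chr5:151627720-151628740 (1.14, limma adjusted p = 0.0423). On rank scores the last 2 had limma adjusted p of 0.743 and 0.806. MAP3K9's site had heights of 32, 25 and 46 in controls and 66, 72 and 76 in silenced cells, and SPARC's 12, 12 and 14 against 26, 42 and 24.

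Between the lines, averaged over treatment, 656 members passed in limma on rank scores. In KYSE510, 171 members (7.92%) ranked higher, against 13.7% of all tested regions, and 485 (22.5%) ranked lower, against 13.5% of all. Higher ones were 26.1% of the calls on rank scores and 37.5% (372 of 991) on the log2(height + 1) scale. The rule selects for rank in KYSE150, so this split cannot be read as a trait of the regions alone. How much of the split comes from the rule was not tested. Of strong promoter regions, held to the same height, 7.42% ranked higher and 10.6% lower. With the rule taken instead on rank, a height at or above the median of the tested regions in every library, 1457 distal regions were kept, of which 142 (9.75%) ranked higher and 257 (17.6%) lower. The line cannot be told apart from the sequencing and peak calling of its libraries. The other scalings called more of everything. On ranks of height 299 members were higher and 698 lower, against 20% and 20.6% of all tested regions. On log2 values 372 were higher and 619 lower, against 20.8% and 20.9%, and on quantile-normalised values 300 and 699, against 20.3% and 20.9%. With control libraries only, 282 members (13.1%) passed, which lies at the 13.2% of all tested regions. Nearly all calls kept their direction where another scaling also called them. Of the 171 higher calls, 143 to 155 were also called higher on ranks of height, log2 or quantile-normalised values and none lower. Of the 485 lower calls, 401 to 417 were also called lower and 3 called higher, at sites near MYC and PSMA6 and inside SHANK2.

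The local background at a member moved with the call. The median ratio of background, KYSE510 over KYSE150, was 2.47 for members that ranked higher in KYSE510, 1.04 for those that ranked lower and 1.44 for the 1504 with no call. The ratio was above 3 at 53 of the 171 higher members and under 1 at 227 of the 485 lower ones. The background comes from the height and fold enrichment of the same peaks, and copy number was not measured. Its part in the calls was not tested. Of 174 members on chromosome 7, 6 were higher and 64 lower in KYSE510, and of 183 on chromosome 5, 13 and 64. Of 69 on chromosome 14, 19 were higher and 9 lower, with a median background ratio of 2.19. Of 42 on chromosome 13, none was higher and 16 were lower, with a ratio of 0.857. Over all chromosomes, 13.7% of tested regions were higher and 13.5% lower. Calls among all tested regions were not counted by chromosome, so these counts do not set members apart from their chromosome.

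**Figure D4:**
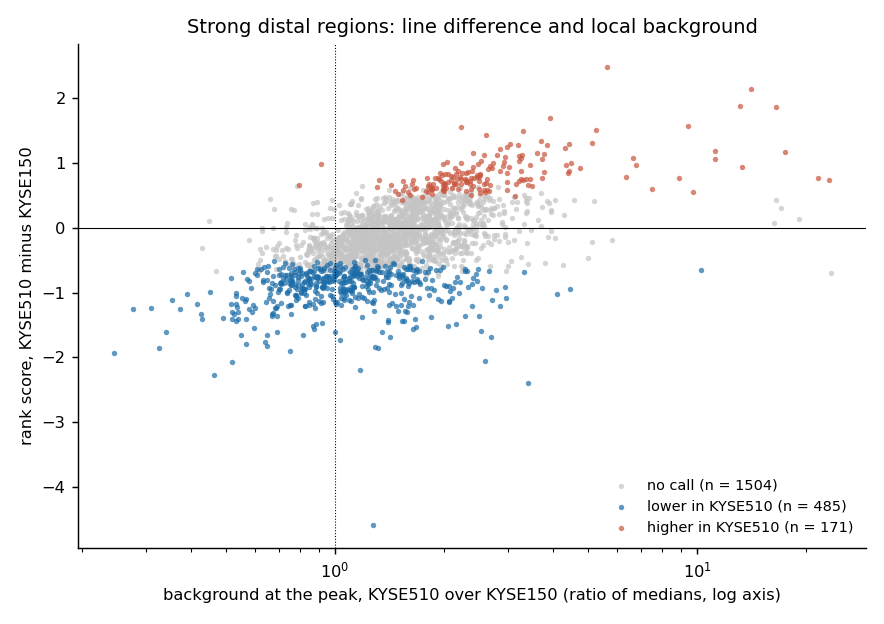
Difference in rank score, KYSE510 minus KYSE150 (y axis, SD units), against the ratio of the background at the peak, KYSE510 over KYSE150 (x axis, ratio of medians, log axis), for each of the 2160 strong distal regions. The 171 regions that ranked higher in KYSE510 (red) have a median ratio of 2.47 and the 485 that ranked lower (blue) one of 1.04.

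The members that ranked highest in KYSE510 relative to KYSE150 were all of modest height in KYSE150. A site inside SEMA5A, an axon guidance gene, at chr5:9059824-9060461 had heights of 12, 18 and 16 in KYSE150 controls and 10, 12 and 15 in silenced KYSE150. In KYSE510 it had 73, 80 and 89 in controls and 80, 88 and 80 in silenced cells. The lines did not overlap, and the rank score differed by 2.49 (SE 0.19, limma adjusted p = 4.541e-10). Its background was 0.42 and 2.37. A site inside TSHZ3, a zinc finger gene, at chr19:31214020-31214557 had 16 to 28 in KYSE150 and 233 to 315 in KYSE510, with a background of 0.67 and 9.44. A site 18500 bp from MYL12B, a myosin light chain gene, at chr18:3296961-3297806 had 15 to 27 and 180 to 277, and one 45935 bp from SHANK2 at chr11:71299169-71299932 had 16 to 31 and 339 to 416. A site 106144 bp from ZBTB18, a repressor gene, at chr1:244163620-244164447 had 11 to 23 and 45 to 62.

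The members that ranked lowest in KYSE510 included the third mitochondrial pseudogene, MTND4P12, inside PCBD2 at chr5:134926735-134927187, with heights of 523 to 548 in KYSE150 and 111 to 128 in KYSE510. Its rank score differed by -4.59 (SE 0.18). A site 67564 bp from SMYD2, a lysine methyltransferase gene, at chr1:214212901-214213595 had 73, 74 and 85 in KYSE150 controls and 78, 103 and 83 in silenced KYSE150. In KYSE510 it had 15, 20 and 27 in controls and 28, 35 and 36 in silenced cells. The lines did not overlap, and the rank score differed by -2.28 (SE 0.18, limma adjusted p = 6.096e-10), with a background of 2.52 and 1.17. A site 86517 bp from BBS9, a ciliary gene, at chr7:33722284-33723113 had 32 to 49 in KYSE150 and 10 to 25 in KYSE510, and one 123562 bp from CPEB4, a translation regulator gene, at chr5:173764305-173764787 had 31 to 62 and 14 to 26. A site 124373 bp from EXT1, a heparan sulphate polymerase gene, at chr8:117669586-117670117 had 18 to 26 and 11 to 22, which overlap in height but not in rank.

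**Figure D5:**
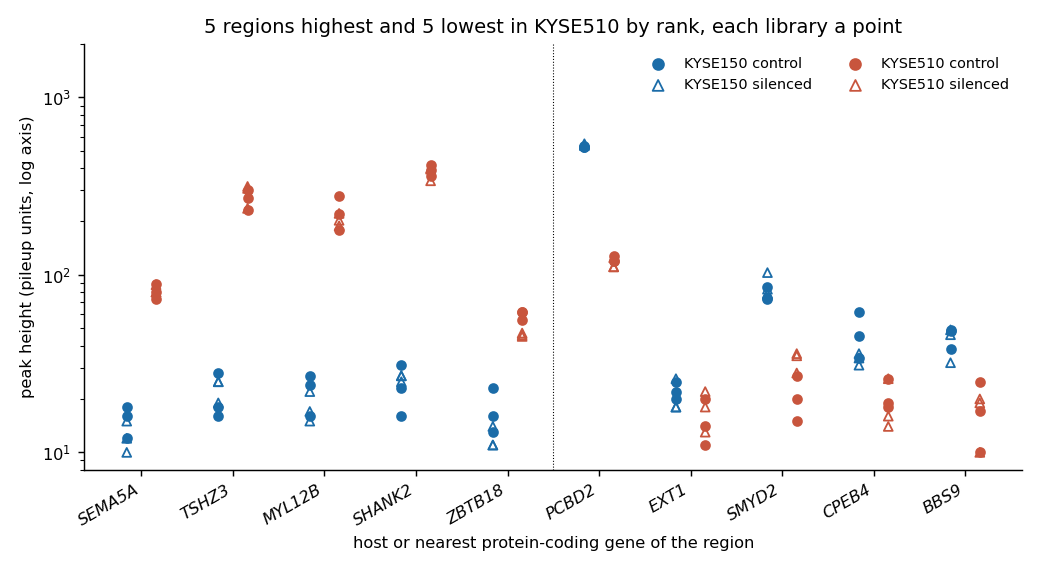
Peak height in pileup units (y axis, log axis) in each library for the 5 members that ranked highest and the 5 that ranked lowest in KYSE510, named by host or nearest gene (x axis). Circles are control and triangles HCP5-silenced libraries; the SEMA5A site spans 10 to 18 in KYSE150 (blue) and 73 to 89 in KYSE510 (red).

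Of the starts printed above, some lay in regions that ranked higher in KYSE510, some in regions that ranked lower, and others in regions that did not pass. DLGAP1-AS6's region at chr18:3652372-3653241 had heights of 21, 17 and 26 in KYSE150 controls and 24, 20 and 14 in silenced KYSE150, and 423, 321 and 312 in KYSE510 controls and 280, 288 and 269 in silenced KYSE510. It ranked higher in KYSE510 by 1.17 (SE 0.19, limma adjusted p = 3.64e-05), with a background of 0.900 and 15.8. LINC-PINT's region at chr7:130912999-130913790 had 34, 27 and 33 in KYSE150 controls, 28, 28 and 29 in silenced KYSE150, 17, 15 and 17 in KYSE510 controls and 11, 16 and 19 in silenced KYSE510. The lines did not overlap, and its rank score differed by -1.49 (SE 0.25, limma adjusted p = 6.64e-05). LINC02608's region had medians of 42 and 26 and ranked lower, as did that of LOC105378494 (49.5 and 41). The regions of LOC124906088 (26 and 31), EGFR (17 and 18), CHASERR (41 and 79) and PHF19 (73.5 and 83) did not pass. Of the 77 members whose only annotated start was of a long non-coding RNA, 2 ranked higher (2.60%) and 18 lower (23.4%), against 7.92% and 22.5% of all members and 13.7% and 13.5% of all tested regions. Of the 110 with a protein-coding start, 11 ranked higher (10%) and 12 lower (10.9%).

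For the gene groups, members were assigned to a gene by host, nearest gene or non-coding host. The lists had been drawn up with earlier results of these data known. Counts of calls are read against 13.7% higher and 13.5% lower among all tested regions, and 7.92% and 22.5% among all members. On the other scalings all tested regions had 20 to 20.9% each way, and members had more lower than higher calls. Of 20 transcription factors of squamous lineage, 6 had members, 10 in all, of which 1 ranked higher in KYSE510 and 2 lower. The member 32285 bp from TP63, which encodes p63, at chr3:189563748-189564461 had heights of 19 to 29 in KYSE150 and 10 to 13 in KYSE510. Its rank score differed by -1.40 (SE 0.22, limma adjusted p = 2.89e-05). The member in BARX2, a homeobox gene, at chr11:129439789-129440506 had 10 to 18 and 21 to 30 and ranked higher. The members near SOX2 (2), EHF (1) and RUNX1 (2) did not pass on rank scores. On each of the other scalings both RUNX1 members were lower, and on log2 values 1 SOX2 member was higher. The list counted 4 lower on each of those scalings, with 3 higher on log2 values and 2 higher on the rest.

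Of 15 genes of AP-1 and related bZIP factors, FOS, JUN, ATF3 and BACH2 had 9 members, of which 4 ranked lower in KYSE510 and none higher. Both members inside ATF3, a stress-induced factor, ranked lower. The taller one, at chr1:212608095-212608999, had heights of 100 to 160 in KYSE150 and 46 to 55 in KYSE510, with a background of 7.12 and 2.95. Of the 3 members near JUN, 2 ranked lower, the taller with 31 to 44 in KYSE150 and 27 to 49 in KYSE510, which overlap in height. The 2 members near FOS passed on the other 3 scalings as higher (29 to 65 and 18 to 40.5 in median height, KYSE150 to KYSE510) but not on rank scores, where 1 has the opposite sign (-0.10). With those scalings the list counted 2 higher and 3 lower.

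Of 16 genes of the YAP-TEAD pathway, which relays cell density to transcription, 8 had members, 16 in all, of which 3 ranked higher in KYSE510 and 2 lower. YAP1, the co-activator, had 4. The members at chr11:102177996-102178692 inside YAP1 and at chr11:102256196-102256865 and chr11:102268296-102269056 beyond it ranked higher, with median heights of 21, 29 and 32 in KYSE150 and 57.5, 74 and 73.5 in KYSE510. The fourth, at chr11:102244540-102245408, had medians of 15 and 30 but did not pass on rank scores (0.02). Over these 4 the background spanned 0.720 to 1.44 in KYSE150, and in KYSE510 it spanned 1.85 to 3.60. Both members inside TEAD1, a DNA-binding partner of YAP1, ranked lower, with medians of 29 and 19.5 in KYSE150 and 14.5 and 15 in KYSE510. On ranks of height the list counted 4 higher and 6 lower.

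Of 16 receptor tyrosine kinases and ligands, 6 had members, 14 in all, of which 4 ranked lower in KYSE510 and none higher. With log2 values the count was 6 higher and 6 lower, against 20.8% and 20.9% of all tested regions, so the lack of higher calls depends on the scale. EGFR had 6 members, 5 inside the gene. Of these, 3 ranked lower: the one 51039 bp away at chr7:54967242-54967978 (medians 26 and 19), and neighbours at chr7:55132595-55133538 (59 and 33) and chr7:55133585-55134121 (32 and 19). The start printed above lies in a member with heights of 11 to 21 in KYSE150 and 10 to 24 in KYSE510, which overlap. MET, the receptor for hepatocyte growth factor, had 1 member at chr7:116716588-116717179, with 28 to 57 and 24 to 35, which ranked lower. The 3 members in IGF1R, the insulin-like growth factor receptor gene, and both at EPHA2, an ephrin receptor gene, were higher on the log2 scale and did not pass on rank scores.

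Of 14 genes of hemidesmosomes, laminins and integrins, which anchor basal cells, 7 had 11 members, of which 1 ranked higher and 4 lower. These counts were the same on all 4 scalings. LAMA3's start was the one that ranked higher, at chr18:23872605-23873224, with heights of 21, 31 and 28 in KYSE150 controls and 31, 23 and 17 in silenced KYSE150. In KYSE510 it had 75, 78 and 61 in controls and 67, 75 and 82 in silenced cells. The rank score differed by 0.88 (SE 0.18, limma adjusted p = 0.000430), with a background of 0.890 and 2.90. Among the lower ones were the member 22163 bp from ITGB1, an integrin beta chain gene (33 and 21.5), and 2 of 3 members in PLEC, the plectin gene. The members in DST, which encodes a hemidesmosomal linker, had 17 to 34 in KYSE150 and 23 to 42 in KYSE510 and did not pass.

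Of 12 TGF-beta pathway genes, TGFB2 and SMAD3 had 8 members, of which 3 ranked lower in KYSE510 and none higher. The 3 were all at TGFB2, which encodes a ligand. The tallest, 51945 bp from the gene at chr1:218496564-218497045, had heights of 116, 110 and 105 in KYSE150 controls and 117, 98 and 89 in silenced KYSE150. In KYSE510 it had 61, 44 and 69 in controls and 71, 68 and 63 in silenced cells. The lines did not overlap, and the rank score differed by -1.51 (SE 0.15, limma adjusted p = 1.88e-08), with a background of 3.03 and 2.63. The 3 members in SMAD3, a signal transducer of the pathway, did not pass. On the other 3 scalings 6 members of this list were lower and none higher. None of 8 genes of chromosome architecture and cohesin had a member.

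Of the study's own genes, MYC, the transcription factor named in its title, had 10 members, while HCP5, UTP3 and VAMP3 had none. By the rule of more than 10 kb from gene ends, no member could lie inside MYC, which spans 7.5 kb. The heights around MYC were 11 to 61 in KYSE150 and 34 to 811 in KYSE510, and the background 0.520 to 2.08 and 5.31 to 42.9. On rank scores, which set height against background, 5 ranked higher in KYSE510 and 1 lower, and on the other 3 scalings all 10 were higher. The one at chr8:127596022-127596763 had 45, 50 and 46 in KYSE150 controls and 50, 46 and 32 in silenced KYSE150, and 553, 520 and 489 in KYSE510 controls and 538, 562 and 545 in silenced KYSE510. Control and silenced libraries overlapped in both lines. Of the 10, 6 lie in PVT1, a long non-coding RNA gene.

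Of 26 non-coding RNA genes, PVT1, DANCR, LINC-PINT and LUCAT1 had 11 members, of which 4 ranked higher in KYSE510 and 3 lower, or 7 and 2 on the other 3 scalings. The 6 members in PVT1 are regions already counted at MYC. They gave 3 of the higher calls and 1 of the lower calls on rank scores, and on the other scalings all of them were higher. LINC-PINT had a second member at chr7:130904040-130904707, with 11 to 18 in KYSE150 and 17 to 29 in KYSE510, which ranked higher on fold enrichment only, opposite to the start printed above. Of the 2 members in LUCAT1, a stress-induced RNA, the one at chr5:91311517-91312325 ranked lower (19 to 28 and 15 to 21), and the one at its start did not pass. DANCR starts in a member with 16 to 30 in KYSE150 and 34 to 63 in KYSE510, which was higher on the other scalings and not on rank scores (0.35, limma adjusted p = 0.204).

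The 7 members with tRNA genes had a median length of 1075 bp and median heights of 19 in KYSE150 and 25 in KYSE510. Of these, 1 ranked lower in KYSE510. It holds TRV-TAC1-1, 23471 bp from OSBP at chr11:59550223-59550927, with heights of 13 to 32 and 17 to 37, which overlap. The member with TRS-TGA4-1, 32367 bp from ZNF184, had 14 to 22 and 11 to 19 and did not pass. Tandem copies of tRNA genes are similar in sequence, so their reads may be shared.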

How the data were processed

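Per the labels' protocols, nuclei were tagged by transposition with a TruePrep kit, and libraries were read from both ends. The submitters' processing notes name Trimmomatic 0.36, Bowtie2 2.2.6, Picard 2.8.2, MACS2 2.1.1, bedtools 2.25.0 and build GRCh38, with no role or order. The authors deposited 1 peak table a library. Per the file headers it gives the fold enrichment of each peak (a ratio of height to local background), its p-value and FDR on the linear scale, its length and its pileup, the height as a signal and not a count of reads. No deposited p-value exceeded 0.00987. As far as the tables show, the authors did not scale the signal between libraries, and the depth is unknown.

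Peaks were merged and assigned to genes of the RefSeq table for GRCh38.p14 in Python 3.11.15 (numpy 2.4.6, pandas 2.3.3). Height and fold enrichment together gave the background of a peak, by a formula that was checked on the files. For each library the fold enrichment of the tallest peak in a region was ranked over the 20785 regions with a peak of height 3 or more in all 12 libraries and turned into normal scores. Scores were fitted with limma 3.58.1 (R 4.3.3; lmFit, eBayes with a variance trend, 4 group means), tested on simulated data, with Benjamini-Hochberg adjusted p under 0.05 as the threshold. Start windows and tRNA names came from RefSeq tables, and a genome sequence was not used here.

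The members and lists were chosen with earlier results of these data known. Named regions are the 10 members of highest mean percentile, the 3 of smallest p each way for silencing and its difference between lines, the 5 of largest line change each way whose lines do not overlap in rank, the steadiest and most variable, the longest, the largest stretches, and up to 3 members a list and 4 a class. List members beyond these, the printed starts and the 3 members called on the log2 scale or opposite between scalings were chosen after their values were seen. Values of 1 listed gene are not reported here.

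The alternatives were other heights, distances and gene sets for the rule, other merging, ranks of height, log2(height + 1), quantile normalisation, an FDR filter, no variance trend, a replicate block, single lines or controls only, and leaving out each library.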

Additional observations from a re-analysis of the deposited data

How the results depend on the processing

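The number of regions that meet the rule was 893 with a height of at least 15, 388 with 20, 920 beyond 50 kb from gene ends and 1322 when non-coding genes also counted. Leaving out 1 library gave 2180 to 2467, the most without KYSE150 silenced library 3. The tables give no summit, so peak centres within 150 bp of each other were joined in place of summits, which gave 2038. For silencing in KYSE510, 3 members passed with log2(height + 1) and 1 with quantile-normalised values (18 and 5 of all 20785 tested regions), where none passed on rank scores; the cause was not tested. No member passed for silencing in KYSE150 or for the difference between lines under any of the alternatives run. Between the lines 997 members passed with ranks of height, 991 with log2(height + 1), 999 with quantile-normalised values and 282 with the control libraries only, which has fewer samples. Over all tested regions these settings called 8455, 8660, 8560 and 2753. Leaving out 1 library gave 561 to 600. Of the regions chosen by rank of height, an alternative chosen after seeing the data, 399 passed. Same-numbered control and silenced libraries of a line correlated by 0.0134 to 0.103 in their deviations from the group means. Differently numbered ones correlated by -0.0742 to 0.0231. The labels do not say that equal numbers pair the libraries, and these values do not settle it, so the main fit had no block. With the replicate block 675 members passed between the lines and none for silencing or its difference between lines. The unknown depth limits every comparison of heights between libraries.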
